A study of Mus musculus with 4 samples.

Results

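The mRNAs described here are those of the translation initiation factors (eIFs) and translation elongation factors (eEFs), measured in RNA that came down with an antibody to CPEB2 and in RNA that came down with control IgG. The members were chosen by name alone: every gene of the array annotation whose symbol starts with Eif1 to Eif6 or with Eef1 or Eef2 was taken, and the Argonaute genes filed under the old name Eif2c and the eIF4E transport protein gene Eif4enif1 were left out. This gave 61 genes of the 24185 gene symbols on the array, carried by 98 probes in 107 spots. All 61 were well above background on all 4 arrays with their brightest probe, and all 61 could be tested. A single probe represented 37 of the genes, and 23 had more than 1 probe that could be tested.

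RNA immunoprecipitation recovers the transcripts that travel with a protein, and the same procedure with non-specific IgG shows which RNA comes down without it. Each array was scaled to its own 75th percentile, so higher and lower are relative to the other RNA on the same array. The amount of RNA that came down was not measured by the arrays. The starting material was a lysate of cortex and hippocampus from male C57BL/6 mice aged 8 weeks, without any transgene or treatment named in the labels, and in each of 2 experiments the lysate was split between CPEB2 IgG and control IgG. This gave 2 CPEB2 IgG arrays and 2 control IgG arrays, which are compared within each experiment. The recovered RNA was amplified, labelled with Cy3 and hybridized to SurePrint G3 Mouse 8x60K arrays, and the number of animals behind a lysate is not given in the sources used here.

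Every array carried 55681 distinct probes, 68.4% to 74.1% of the spots were well above background and none was saturated. Median signals were 68.1 and 59.0 on the CPEB2 IgG arrays and 75.8 and 76.5 on the others. All 4 arrays lay on the same slide, control IgG in columns 1 and 2 and CPEB2 IgG in columns 3 and 4, so position on the slide and antibody cannot be told apart. The description that goes with the samples titled CPEB2 IgG speaks of CPEB3 IgG, and the name CPEB2 was kept here because titles and protocol give it. Each of the 5 neuronal markers examined (Snap25, Map2, Rbfox3, Camk2a and Tubb3) was well above background on all 4 arrays. Of markers for cells other than neurons, 3 of 5 for astrocytes, 2 of 5 for oligodendrocytes, 3 of 5 for microglia and 1 of 2 for blood were lower with CPEB2 IgG, and 1 astrocyte and 1 microglia marker were higher. Of all genes tested, 20.4% were lower and 21.2% higher. Among the neuronal markers, 1 was higher and 1 was lower, and none of 3 endothelial markers passed. The summed signals of the astrocyte markers ranged from 25765 to 33588 with CPEB2 IgG and from 196294 to 241453 with control IgG, mostly from Aldoc. Those of the microglia markers ranged from 6414 to 7333 and from 10306 to 12045, those of the oligodendrocyte markers from 55839 to 57993 and from 47673 to 63193, and those of the neuronal markers from 77555 to 79744 and from 77938 to 85491. Both antibodies received the same lysate, and the part of these transcripts in the values given here was not tested. Of 2 liver markers, Alb was not well above background on enough arrays to be tested, whereas Apoa2 had signals of 4369 and 2922 under CPEB2 IgG against 2984 and 4043 under control IgG. The mRNA of Gapdh, a glycolytic enzyme often used as a reference, had signals of 48250 and 39694 under CPEB2 IgG against 253696 and 266689 under control IgG. It was lower with CPEB2 IgG (log2 fold change −2.52 ± 0.29, adjusted p = 0.00543).

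Translation starts when eIF2 brings the initiator tRNA to the small ribosomal subunit, which carries eIF1, eIF1A and the large eIF3 complex. The mRNA is recruited through its 5′ cap by eIF4F, made of the cap-binding eIF4E, the scaffold eIF4G and the helicase eIF4A. eIF5 and eIF5B then drive start codon recognition and joining of the large subunit, after which eEF1A delivers aminoacyl-tRNAs and eEF2 moves the ribosome along. The pathway is controlled mainly at 3 points: kinases that phosphorylate eIF2 and so block its recharging by eIF2B, 4E-binding proteins that keep eIF4E from eIF4G, and the kinase that inactivates eEF2. CPEB2 is an RNA-binding protein that recognises cytoplasmic polyadenylation elements (CPEs, U-rich motifs in 3′ untranslated regions) and regulates translation of the mRNAs that carry them.

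The measurements rest on probes of 60 bases, and the middle 30 bases of a few are shown here, written as the transcript reads from 5′ to 3′, with positions on mm9 from the array annotation. The first set marks what was measured for 4 of the mRNAs that were higher with CPEB2 IgG and for the member with the lowest value.
Eif2ak3 (chr6:70855167-70855196, plus strand): cgtaagtgtgataactattatgacttcttt
Eif2ak4 (chr2:118300907-118300936, plus strand): tgagctttgtcgggttttcatgtataaatt
Eif4e3 (chr6:99575508-99575537, minus strand): aaacaggaagccaaattaattagtggtcag
Eif4ebp2 (chr10:60895394-60895423, minus strand): acatctgcatcagaagagatgcctcccatg
Eef1a2 (chr2:180884442-180884471, minus strand): gaatgtgtccgttaaggatattcgccgggg

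The second set shows pairs of probes on a single transcript that gave opposite signs. They are the pairs of Eif2s1, Eif5 and Eif1, and the values are given further on. The upstream probe of Eif1 crosses a splice junction and is printed without coordinates.
Eif2s1, upstream probe (chr12:79986239-79986268, plus strand): acaaacaatcccaatctttctatataaaat
Eif2s1, downstream probe (chr12:79987937-79987966, plus strand): ggaggctagcctagttttcaaagcaagttc
Eif5, upstream probe (chr12:112778390-112778419, plus strand): tgttaagaatgaccgttacattgtcaatgg
Eif5, downstream probe (chr12:112784740-112784769, plus strand): gtgtcataaagtttcctgtttcaaacagct
Eif1, upstream probe: ctgatgattacaataaaaagaaactagtaa
Eif1, downstream probe (chr11:100183318-100183347, plus strand): acaagctggtcttttggttttctttccccc

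The third set holds the only member probes in which a CPE was found, with the motif in capitals, and gives the first 30 bases of the Eif5a probe because the motif lies there. The motifs searched were TTTTAT and TTTTAAT, on the transcribed strand and in the whole probe.
Eif3j1 (chr2:121882030-121882059, plus strand): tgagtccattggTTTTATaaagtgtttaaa
Eif5a (chr11:69730717-69730746, minus strand): atttatttgacgTTTTATtttggttttcct
A CPE was present in 2 of the 98 member probes (2.04%) and in 2523 of all 55615 probes (4.54%). The printed Eif3j1 probe had a log2 fold change of −0.03 and the Eif5a probe of −0.45, and neither gene passed the test. A probe covers only a small stretch of a transcript, so these shares say nothing of CPEs elsewhere in the same mRNAs.

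Many initiation and elongation factor mRNAs were lower in the CPEB2 IgG precipitate than in the control IgG precipitate, and a few were higher. With limma fitted to all 19698 genes, 29 of the 61 members (47.5%) were called lower with CPEB2 IgG (adjusted p under 0.05), against 20.4% of all genes tested. Only 6 members (9.84%) were higher, against 21.2% of all genes tested. The 6 were Eif1a, Eif2ak3, Eif2ak4, Eif4e3, Eif4ebp2 and Eef2k, and 26 members did not pass the test in either direction. Without the experiment as a block, the same 6 were higher and the same 29 were lower. Both experiments gave the same sign for 55 of the 61. That share was not counted for all genes, whose log2 fold changes had a correlation of r = 0.82 between experiments. Of the 29, 9 passed neither without a filter on dim probes nor with spike-in scaling (Eef1e1, Eef1g, Eif2ak1, Eif2d, Eif3h, Eif4b, Eif4e2, Eif4ebp3 and Eif4g1), and Eif2b3 and Eif4a3 did not pass without the filter. Eif1a and Eef2k did not pass without the filter, nor with either control IgG array left out.

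Here a log2 fold change is the scaled log2 signal with CPEB2 IgG minus that with control IgG, averaged over the 2 experiments, and its error is the SD of the 2 differences (n = 2). Signals are given before scaling, in the order experiment 1 and experiment 2. The median log2 fold change of the members was −0.81, with −0.84 in experiment 1 and −0.79 in experiment 2. It was −0.59 when the probe nearest the 3′ end of each gene was used in place of the brightest. The median of all genes tested was −0.11. Members ranged from −3.26 to 3.39 and all genes from −4.32 to 5.40, and 43 members lay below the median of all genes. A change of more than 2-fold was measured for 26 members in the lower direction and for 5 in the higher. Of all genes tested, 17.9% lay below Eif4g1, the weakest of the 26, and 81.6% lay below Eif1a, the weakest of the 5. In 41 members both CPEB2 IgG arrays lay below both control IgG arrays, against 38.2% of all genes, and in 14 both lay above, against 33.7% of all genes.

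**Figure D1:**
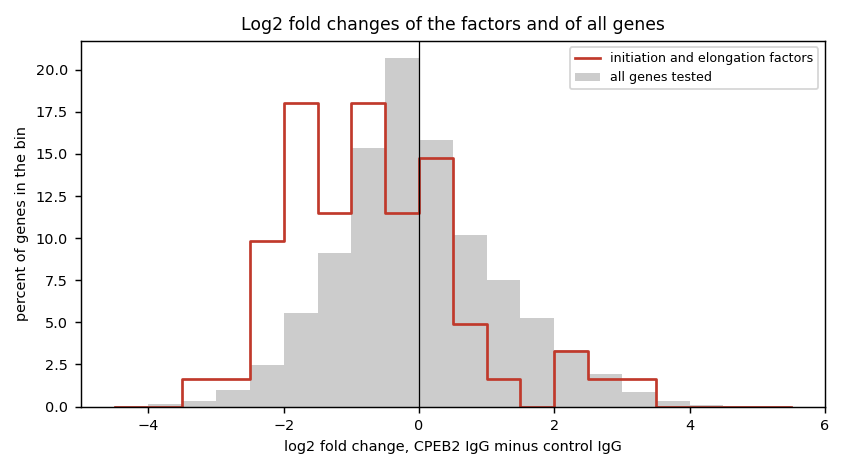
Log2 fold changes between CPEB2 IgG and control IgG (x axis), with the percent of genes in each bin of 0.5 (y axis), for the 61 initiation and elongation factors (red line) and all 19698 genes tested (grey). The factors lie further to the left, with a median of −0.81 against −0.11, and a few lie above 2.

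**Figure D2:**
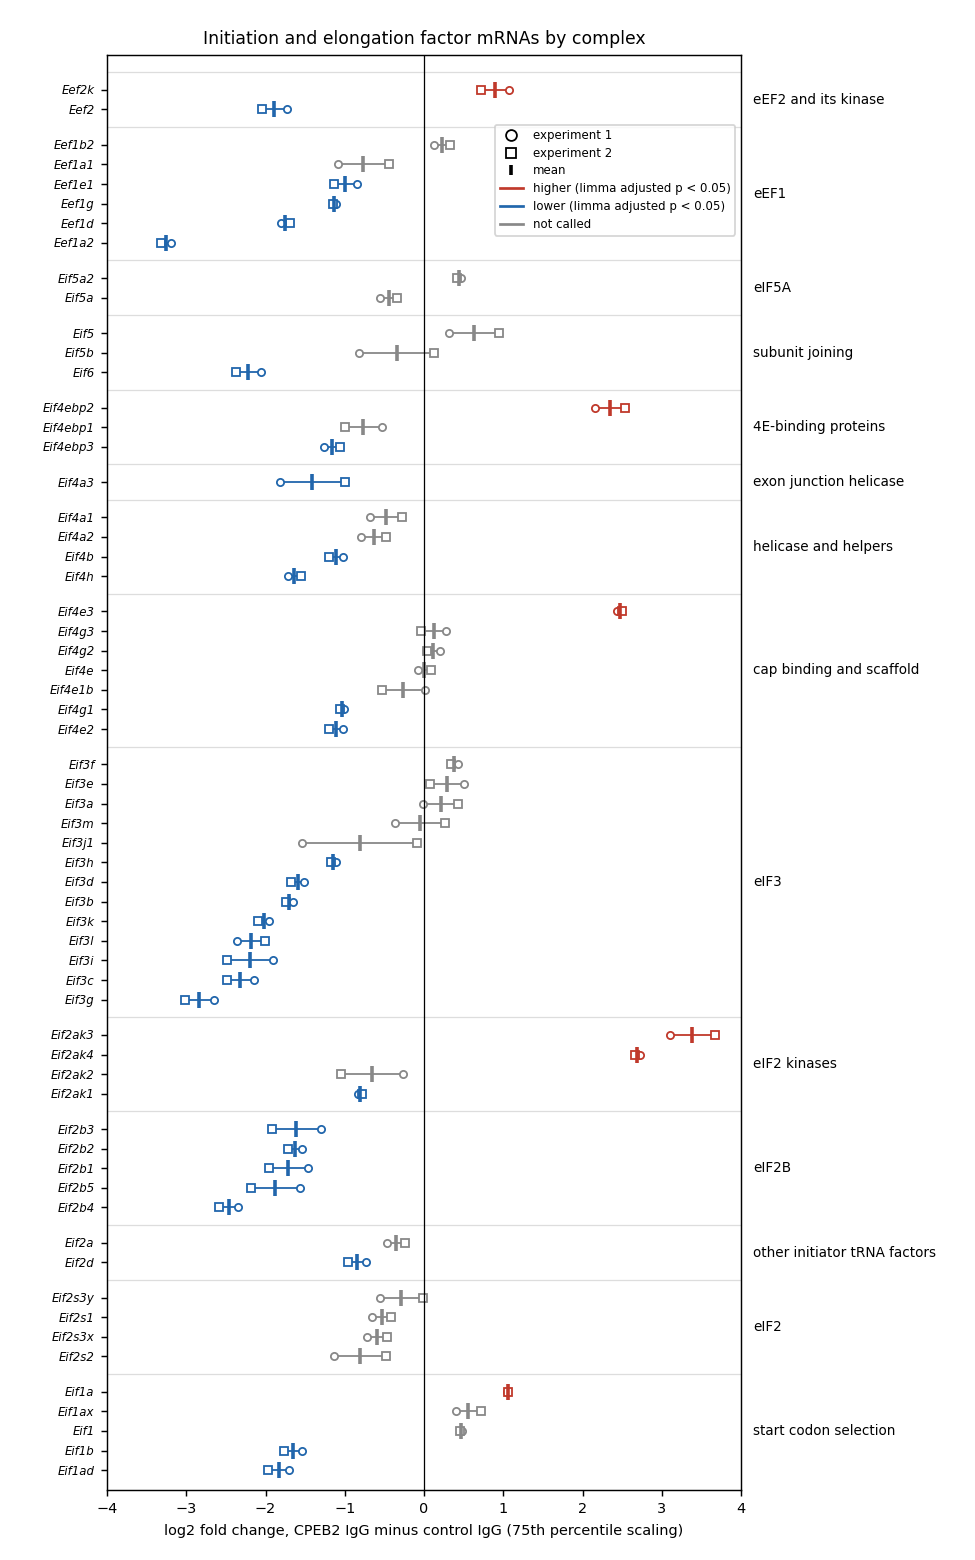
Log2 fold change (x axis, CPEB2 IgG minus control IgG after scaling to the 75th percentile) of each of the 61 mRNAs, grouped by complex. Circles and squares are the 2 experiments, the bar is their mean, and colour gives the limma call; eIF2B and most of eIF3 lie to the left of 0, and Eif2ak3, Eif2ak4, Eif4e3 and Eif4ebp2 lie above 2.

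Among the genes grouped here by symbol under start codon selection, Eif1a was higher with CPEB2 IgG, Eif1b and Eif1ad were lower, and Eif1 and Eif1ax did not pass the test. Eif1a had signals of 5224 and 5536 under CPEB2 IgG against 2685 and 2690 under control IgG. Both CPEB2 IgG arrays were above both control arrays, and the log2 fold change of 1.05 ± 0.02 passed the test (adjusted p = 0.0231). Its X-linked paralog Eif1ax had 4448 and 4970 under CPEB2 IgG against 3576 and 3081 under control IgG, again without overlap, but its log2 fold change of 0.56 ± 0.22 did not pass (adjusted p = 0.129). Eif1ad, which encodes a protein with an eIF1A-like domain, was the lowest of these genes. Its signals were 1785 and 1356 under CPEB2 IgG against 6143 and 5423 under control IgG, about 3.57-fold lower (adjusted p = 0.007). Its other probe, further downstream on the same transcript, had 0.41 ± 0.09 and did not pass. Eif1b, a close relative of Eif1, fell by 1.66 on the log2 scale. Eif1 itself, whose product keeps the scanning ribosome in its open form, had a log2 fold change of 0.46 ± 0.01 (adjusted p = 0.170) with its brightest probe.

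None of the 4 eIF2 subunit genes passed the test with its brightest probe. In all 4 both CPEB2 IgG arrays lay below both control IgG arrays, against 38.2% of all genes. The highest and lowest of them were Eif2s3y and Eif2s2. Eif2s3y, the Y-linked copy of the gamma subunit, had signals of 332 and 438 under CPEB2 IgG against 515 and 452 under control IgG (log2 fold change −0.29 ± 0.38). The X-linked Eif2s3x had 468 and 389 against 816 and 545 (−0.59 ± 0.18). Eif2s2, the beta subunit, had 2069 and 3201 against 4820 and 4530 (−0.81 ± 0.47), and here experiment 1 showed the larger difference. Eif2s1, the alpha subunit that the eIF2 kinases phosphorylate, had −0.54 ± 0.16. Of 2 further factors that can bring initiator tRNA to the ribosome, Eif2d was lower. Its signals were 299.9 and 333 under CPEB2 IgG against 527 and 658 under control IgG (adjusted p = 0.0446). Eif2a had 226 and 280 against 333 and 336, without overlap and without passing the test (−0.35 ± 0.17, adjusted p = 0.286).

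All 5 subunit mRNAs of eIF2B, the exchange factor that reloads eIF2 with GTP, were lower with CPEB2 IgG, where 20.4% of all genes were. Their median log2 fold change was −1.71 and their range −2.46 to −1.61. Eif2b4, the delta subunit, had signals of 1251 and 1071 under CPEB2 IgG against 6730 and 6523 under control IgG. This was a 5.52-fold difference (adjusted p = 0.00543), and the arrays of each antibody lay close together. Eif2b3, the gamma subunit and the highest of the complex, still had only 105.1 and 91.1 against 274 and 351 (adjusted p = 0.0119). Eif2b1, Eif2b2 and Eif2b5, the last encoding the catalytic epsilon subunit, fell by 1.71, 1.63 and 1.88 on the log2 scale.

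The mRNAs of the eIF2 kinases went in both directions: 2 of 4 were higher with CPEB2 IgG and 1 was lower, against 21.2% and 20.4% of all genes. Eif2ak3 encodes PERK, which responds to unfolded protein in the endoplasmic reticulum. Its signals were 4556 and 6316 under CPEB2 IgG against 562 and 504 under control IgG. This was the highest log2 fold change of the 61 members (3.39 ± 0.40, 10.46-fold, adjusted p = 0.00543), and 99.5% of all genes tested had a lower one. Eif2ak4 encodes GCN2, which senses uncharged tRNA. It had 2340 and 2444 under CPEB2 IgG against 375 and 394 under control IgG (2.69 ± 0.05, 6.45-fold, adjusted p = 0.00543), with almost no difference between experiments. Its other probes, annotated on other transcripts of the gene and with signals of at most 78.6, had −0.55 and −0.15, and with the mean of all 3 probes the gene no longer passed. Eif2ak1, the heme-regulated kinase, had 206 and 255 against 389 and 446 (−0.81 ± 0.04, adjusted p = 0.0464). Eif2ak2, the double-stranded RNA kinase PKR, had −0.66 ± 0.55 and did not pass (adjusted p = 0.135).

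The eIF3 complex, the scaffold of the small subunit, had 13 measured genes, of which 8 were lower with CPEB2 IgG and none was higher, against 20.4% and 21.2% of all genes. Their median log2 fold change was −1.60. Eif3g, an RNA-binding subunit, was the lowest, with signals of 3451 and 2577 under CPEB2 IgG against 22995 and 21295 under control IgG. It fell by 2.84 ± 0.26 on the log2 scale, 7.15-fold (adjusted p = 0.00543). Eif3c, a core subunit that binds eIF1 and eIF5, fell by 2.32 and was lower with each of its 3 probes, which ranged from −3.18 to −1.79. Eif3i, Eif3l, Eif3k, Eif3b, Eif3d and Eif3h also passed, with log2 fold changes from −2.20 to −1.14. Eif3f was the highest of the complex, with 6859 and 6874 against 5422 and 5521, without overlap and without passing the test (0.38 ± 0.06, adjusted p = 0.245). Eif3e, Eif3a and Eif3m lay between −0.06 and 0.29 and did not pass either. Eif3j1, a loosely attached subunit, differed between experiments (−0.81 ± 1.03, adjusted p = 0.174).

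**Figure D3:**
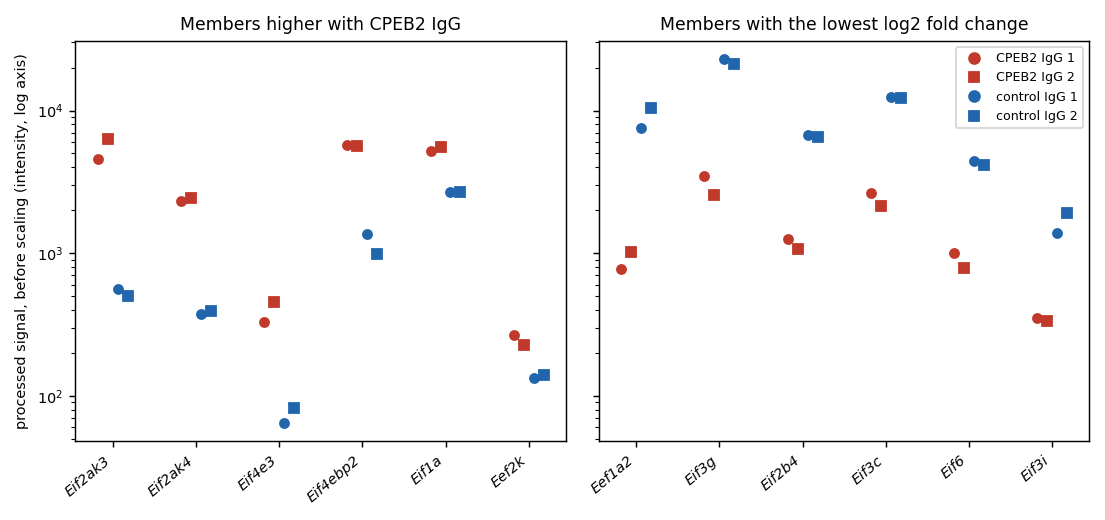
Processed signal before scaling (y axis, log scale) on each of the 4 arrays for the 6 mRNAs higher with CPEB2 IgG (left) and the 6 with the lowest log2 fold changes (right). Red marks CPEB2 IgG, blue control IgG, circles experiment 1 and squares experiment 2. The antibodies do not overlap in the 12, which were picked by call and log2 fold change, so this is no further result. Of all genes, 33.7% lay without overlap on the higher side and 38.2% on the lower.

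Of the 7 cap-binding and scaffold genes, 1 was higher and 2 were lower with CPEB2 IgG, against 21.2% and 20.4% of all genes. Eif4e3, a cap-binding paralog of Eif4e, had signals of 332 and 458 under CPEB2 IgG against 65.0 and 82.4 under control IgG. It was 5.53-fold higher (2.47 ± 0.05, adjusted p = 0.00543). Eif4e, the main cap-binding protein, had 2398 and 2729 against 2691 and 2614, so the arrays of the 2 antibodies overlapped and the log2 fold change was 0.00 ± 0.12. Eif4e2, known as 4EHP and mostly a repressor that competes for the cap, had 707 and 548 against 1517 and 1281 with its brightest probe (−1.11 ± 0.13, adjusted p = 0.0211). Its dimmest probe, on a different transcript of the gene, had 54.5 and 54.7 against 32.0 and 23.5 (1.05 ± 0.27, adjusted p = 0.0267 in the fit of single probes). Eif4e2 was the only member whose probes passed the test in opposite directions. Eif4e1b, a germline paralog, had signals of 26.3 and 28.4 against 27.6 and 41.9, which overlapped.

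With the brightest probe of each, the scaffold genes were lower or close to 0. Eif4g1, the main eIF4G, had 4500.45 and 3713 under CPEB2 IgG against 9588 and 7865 under control IgG (−1.03 ± 0.04, adjusted p = 0.0243). Eif4g2, which lacks the eIF4E binding site, had 1464 and 1284 against 1353 and 1272, and Eif4g3 had 6172 and 5527 against 5383 and 5787. Their log2 fold changes were 0.12 ± 0.11 and 0.12 ± 0.23. Before scaling, the signals of both genes overlapped between the antibodies, and after it those of Eif4g3 did. Another probe of Eif4g3, with signals from 122 to 401, was lower (−1.51 ± 0.15, adjusted p = 0.00865 in the fit of single probes). So was a dimmer one, with signals from 53.2 to 119 (−0.87 ± 0.13, adjusted p = 0.0398 in the same fit). Its dimmest probe had −0.35 ± 0.01 and did not pass.

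The helicase genes and their helpers were all without overlap between the antibodies, on the lower side, against 38.2% of all genes. Of these, 2 of 4 passed the test, against 20.4% of all genes. Eif4a1 had 13971 and 18401 under CPEB2 IgG against 23842 and 22751 under control IgG (−0.49 ± 0.29, adjusted p = 0.181). Eif4a2, the paralog abundant in brain, had 20746 and 28054 against 38158 and 39659 (−0.64 ± 0.23, adjusted p = 0.0957). Neither helicase passed with its brightest probe. The other Eif4a2 probe, annotated on a different transcript of the gene, had 2077 and 2142 against 5016 and 4719. That probe was lower (−1.15 ± 0.05, adjusted p = 0.0173 in the fit of single probes). Eif4h, which with Eif4b stimulates the helicase, had 8023 and 9211 against 27909 and 27569 (−1.64 ± 0.11, adjusted p = 0.0082), and Eif4b had −1.11 ± 0.12 with its brightest probe and 0.22 ± 0.17 with the one furthest downstream. Eif4a3, which despite its name belongs to the exon junction complex, had 220 and 419 against 821 and 852 (−1.41 ± 0.58, adjusted p = 0.0213), with the larger difference in experiment 1.

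The 3 genes for 4E-binding proteins, which release eIF4E when mTOR phosphorylates them, were split. Eif4ebp2, the form most prominent in brain, had signals of 5775 and 5594 under CPEB2 IgG against 1372 and 984 under control IgG. It was 5.08-fold higher (2.34 ± 0.26, adjusted p = 0.00562). Eif4ebp1 had 387 and 377 against 593 and 768 (−0.77 ± 0.33, adjusted p = 0.0688), and Eif4ebp3 had 141 and 167 against 360.3 and 355 (−1.17 ± 0.14, adjusted p = 0.0186). The antibodies did not overlap in any of the 3. Eif4ebp2 lay on the higher side, as did 33.7% of all genes, and Eif4ebp1 and Eif4ebp3 on the lower side, as did 38.2%.

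Among the genes for subunit joining, Eif6, whose product keeps free large subunits from joining early, was lower. It had 997 and 785 under CPEB2 IgG against 4417 and 4139 under control IgG (−2.22 ± 0.22, 4.66-fold, adjusted p = 0.00568). Of its 3 probes, the one on a separate cDNA had −1.36 in experiment 1 and 1.80 in experiment 2. Eif5, which makes eIF2 hydrolyse its GTP, had 8242 and 11962 against 7041 and 6313 with its brightest probe (0.63 ± 0.45, adjusted p = 0.130). Eif5b, the GTPase of subunit joining, had signals between 25.9 and 48.4 and overlapped. The 2 genes for eIF5A, which helps the ribosome through difficult peptide bonds, lay on opposite sides of 0. Eif5a had 3712 and 4729 against 5782 and 6070 (−0.45 ± 0.16), and Eif5a2 had 1408 and 1530 against 1076 and 1164 (0.44 ± 0.04), and neither passed.

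Of the 6 eEF1 genes, 4 were lower with CPEB2 IgG and none was higher, against 20.4% and 21.2% of all genes, and the 2 genes for eEF1A were not alike. Eef1a2, the form used by neurons and muscle, had signals of 778 and 1016 under CPEB2 IgG against 7572 and 10349 under control IgG. This was the lowest value of the 61 members (−3.26 ± 0.09, 9.59-fold, adjusted p = 0.00543), with 0.259% of all genes tested below it. Eef1a1, the form found in most other tissues, had 27534 and 39208 against 61849 and 54418 with its brightest probe (−0.77 ± 0.45, adjusted p = 0.0821). Its other probe, on the same transcript and with signals from 16904 to 41695, was lower (−0.99 ± 0.33, adjusted p = 0.034 in the fit of single probes). Eef1d, Eef1g and Eef1e1 fell by 1.75, 1.14 and 1.00 on the log2 scale. Eef1d and Eef1g encode parts of the exchange factor that reloads eEF1A, and Eef1e1 encodes a protein of the aminoacyl-tRNA synthetase complex. The brightest Eef1g probe is annotated on a cDNA placed on chromosome 15, whereas the gene's other probes lie on chromosome 19 and had −0.73 and −0.74 without passing. Eef1b2, the catalytic part of the same exchange factor, was the highest of the 6, with 12159 and 14578 against 11792 and 11780 (0.23 ± 0.14, adjusted p = 0.477).

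The translocase and its kinase went in opposite directions. Eef2 had 8069 and 6518 under CPEB2 IgG against 28445 and 27399 under control IgG, 3.71-fold lower (adjusted p = 0.00688). Eef2k, the kinase that inactivates eEF2, had 266 and 227 against 134 and 140.3, 1.86-fold higher (0.89 ± 0.25, adjusted p = 0.0417). Its other probes, dimmer and upstream and downstream of the brightest, had 0.25 and 0.23 and did not pass. Eef2k did not pass with scaling to spike-in probes, with the percentile taken over detected probes or with the mean of its probes.

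The study selected transcripts by raw signal, by enrichment and by a CPE in the 3′ untranslated region. The first pair of these criteria was applied here to any probe of a gene, without a test, as a mean increase above 1.5-fold over the 2 experiments and an unscaled signal over 1000 on 1 or more CPEB2 IgG arrays. The averaging and the number of arrays were choices made here, and the CPE criterion was not applied. Past them were 6 members, against 13.9% of all genes with a usable probe: Eif1a, Eif2ak3, Eif2ak4, Eif2s1, Eif4ebp2 and Eif5. Eif4e3 and Eef2k, higher by limma, are missing because their signals stayed under 1000. Eif2s1 and Eif5 are included although limma with the brightest probe called neither. With the same limits turned round, 29 members were past them, against 11.4% of all genes, and Eif5 was on both lists through different probes. They are not the same 29 that limma called lower. Eif1, Eif2s2, Eif3j1, Eif4a2, Eif5 and Eef1a1 were past the limits without a lower call. Eif2ak1, Eif2b3, Eif2d, Eif4a3, Eif4ebp3 and Eef1e1 were called lower without being past them. The shares of 13.9% and 11.4% also count genes too dim to reach a signal of 1000, so part of the contrast can come from brightness. When limma was fitted only to the 8084 genes brighter than 1000 on any array, 2643 were lower and 3314 higher. Of the 46 members among them, 27 were lower and 6 higher.

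When each probe was fitted on its own, 8 of the 96 testable member probes were higher, against 19.9% of all probes, and 44 were lower, against 21.6%. Probes of the same gene had opposite signs in 11 of the 23 members with several testable probes, a share that was not counted for all genes. In Eif3m both values lay close to 0 (0.003 and −0.055). In several of the 11 the probes lie on the same annotated transcript, and the one nearer the 3′ end had the higher log2 fold change. Eif2s1 is an example. Its probe starting at base 1378 had −0.54 ± 0.16, and its probe starting at base 3076, with signals of 1377 and 1249 under CPEB2 IgG against 527 and 480.3 under control IgG, had 1.44 ± 0.05 (adjusted p = 0.0094). The upstream probe of Eif5, at base 729, had 2462 and 3235 against 5507 and 5119 (−0.86 ± 0.31, adjusted p = 0.0487), and the downstream probe, at base 3726, had 0.63. For Eif1 the probe at base 282 had 4229 and 4816 against 11048 and 11030 (−1.24 ± 0.09, adjusted p = 0.0143), and that at base 1115 had 0.46. For each of these 3 mRNAs the pair of probes moved apart in both experiments.

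Taken over all pairs on a single transcript that start 200 bases or more apart (the first and the last probe), 17 member transcripts could be compared. The downstream probe was higher in 12 of the 17 (70.6%), against 78.0% of 3484 transcripts of all genes, so the members' share was no larger than that of other genes. It was higher in both experiments in the same 12 of 17 (70.6%), against 66.8% of the 3484. The median difference was 0.55 on the log2 scale for the members and 0.66 for all genes. The largest differences between probes were those of Eif1ad (−1.84 to 0.41), Eif2s1, Eif1, Eif5 and Eif4b (−1.24 to 0.22). In Eif1ad, Eif4b and Eif4e2, called lower with the brightest probe, the probe nearest the 3′ end of the gene had 0.41, 0.22 and 1.05, and that of Eif4e2 passed in the higher direction. In Eif3c the downstream probe was also higher, but both were far below 0 (−3.18 and −2.32). No such difference was seen for Eif3h, Eif3k, Eif2b3, Eef1g and Eef2k, where the downstream probe was slightly lower. In the 37 members with a single probe, a dependence on its position cannot be examined.

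**Figure D4:**
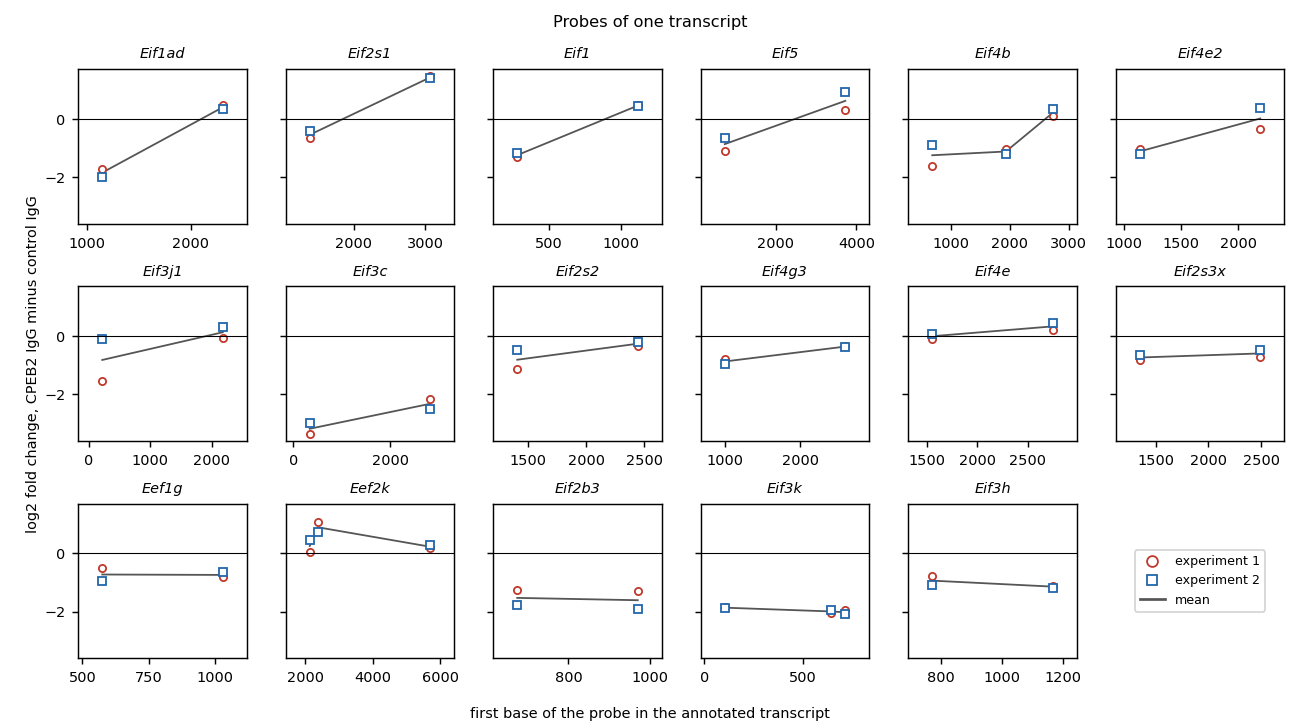
Log2 fold change (y axis, CPEB2 IgG minus control IgG) against the first base of the probe in its annotated transcript (x axis) for the 17 member transcripts with probes at least 200 bases apart. Red circles are experiment 1, blue squares experiment 2 and the line joins the means; the last probe lies above the first in 12 of the 17 and below it in 5.

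Base composition of the probes also moved with the measurements. Across the 61 members the correlation of the brightest probe's GC content with the log2 fold change was r = −0.38, and across all genes tested r = −0.36. These values describe genes on the same 4 arrays, which are not independent replicates. The median GC content was 45.0% for the members, with a range of 31.7% to 55.0%, and 41.7% for all genes. After centring within bins of GC content the members' median was −0.90, the same 6 members were higher, and 35 were lower with the same 29 among them. Over all 19698 genes the median was then −0.15, with 3951 genes higher and 4416 lower. In the main fit 4174 were higher and 4020 lower. For the pairs of probes, GC centring left the downstream probe higher in 12 of 17 member transcripts with a median difference of 0.47, and in 71.4% of all.

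Genes that act beside these factors were described in the same way. Of 10 genes for release, recycling and reinitiation, 7 were lower (Gspt2, Abcf1, Denr, Mcts1, Mcts2, Hbs1l and Pelo) and 1 was higher, against 20.4% and 21.2% of all genes. The higher one was Gspt1, the release factor eRF3a, with 5055 and 7897 under CPEB2 IgG against 1511 and 1449 under control IgG (2.15 ± 0.46, adjusted p = 0.00688). Its paralog Gspt2 had −2.05 ± 0.09. Abcf1, which assists initiation, was the lowest of them with −2.78 ± 0.61. The median of the 10 was −1.30.

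Of 17 genes for poly(A)-binding proteins and regulators of translation, 5 were higher and 4 were lower, against 21.2% and 20.4% of all genes, so neither count was far from the shares over all genes, and the median was 0.41. Pabpc1, the main cytoplasmic poly(A)-binding protein, had 56986 and 56753 under CPEB2 IgG against 13473 and 8322 under control IgG (2.48 ± 0.45, adjusted p = 0.00576). Paip2, which inhibits it, had 1.42 ± 0.31. The kinase genes Mknk2, whose product phosphorylates eIF4E, and Rps6kb1 also rose, with 1.20 and 1.08, as did the helicase gene Ddx3x with 1.12. Those that fell were Rptor, part of the mTOR complex that phosphorylates 4E-binding proteins, with −1.80, Rps6kb2 with −1.42, Dhx29 with −1.18 and Tpt1 with −1.33. Of 9 genes for mitochondrial translation factors, 4 were lower and none was higher, against 20.4% and 21.2% of all genes, with a median of −0.70, and Tufm, the mitochondrial counterpart of eEF1A, was the lowest at −2.41 ± 0.01.

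Several members are known to carry a 5′ terminal oligopyrimidine (TOP) tract, the sequence through which mTOR controls translation of the protein synthesis machinery. Of 9 such members (Eef1a1, Eef1a2, Eef1b2, Eef1d, Eef1g, Eef2, Eif3e, Eif3f and Eif3h), 5 were lower and none was higher, with a median log2 fold change of −1.14. Over all genes 20.4% were lower and 21.2% higher, and of all 61 members 47.5% were lower, a share close to that of the 9. The 5 were Eef1a2, Eef1d, Eef1g, Eef2 and Eif3h. The 4 that did not pass with their brightest probe ranged from −0.77 for Eef1a1 to 0.38 for Eif3f.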

How the data were processed

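The authors deposited the scanner output of each array (Agilent Feature Extraction 10.5.1.1), an intensity for each spot, which that software had background-corrected without normalization between arrays. Probe positions (mm9) and gene symbols come from the array annotation, and all 61 symbols are current in the RefSeq table. Control spots and those flagged for uneven or outlying pixels were left out, 66 probes without a value on every array were dropped, and 55615 were kept. The log2 signal was scaled to each array's 75th percentile. The brightest probe stood for a gene among probes well above background on at least 2 arrays. limma 3.58.1 in R 4.3.3 was fitted to 19698 genes with experiment as a blocking term. P-values were adjusted over all of these genes by Benjamini-Hochberg with a threshold of 0.05. The fit was tested on simulated data. Python 3.11.15, numpy 2.4.6 and pandas 2.3.3 did the rest.

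The block comes from the division of each lysate between the antibodies, and deviations of arrays of the same number from their group means had a correlation of 0.203. Nothing in the sources says whether the 2 lysates came from different animals, so p-values measure the spread between these arrays. With 2 against 2, an exact permutation test of a single gene cannot go below p = 0.333, and the fit leaves 1 residual degree of freedom. The number of arrays limits the precision. The members, the complexes, the gene lists and the markers were chosen with earlier results of these data known. All members may be named, and signals on every array are given for the highest and lowest member of each complex, for listed paralogs and for a gene whose probes were called in opposite directions. Eif2ak4, secondary probes and Gapdh, Gspt1 and Pabpc1 were added after their values were seen. The alternatives were other normalizations, background correction, filters, ways to combine probes, no block, and leaving out arrays or experiments. The probe nearest the 3′ end (by mm9 position along the strand, among probes on the chromosome and strand of the brightest) and the fit of single probes were added after seeing the data.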

Additional observations from a re-analysis of the deposited data

How the results depend on the processing

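The median log2 fold change of the members, −0.81, was −0.58 with median centring, −0.86 without scaling, −0.92 with the percentile over probes detected on all arrays, −0.68 with spike-in scaling, −0.90 with centring within GC bins, −0.73 with normexp background correction, −0.71 with the mean of the probes, −0.59 with the probe nearest the 3′ end and −0.92 for the 46 members with a raw signal above 1000. The count of lower members, 29, was 18 without a filter on dim probes, and leaving out 1 array at a time, without a block, gave 19 to 28 lower and 4 to 6 higher members, the lowest counts without control IgG replicate 1. Leaving out an experiment gave medians of −0.84 and −0.79, and 5 and 7 members past the signal and fold thresholds, in place of 6. That count was 10 with median centring and 3 with the mean of the probes. With the experiments as pairs (the replicate block) or without, 6 members were higher and 29 lower. Calls over all genes fell too without the filter on dim probes, to 1837 lower of 24164 genes, against 4020 of 19698 in the main fit. Fewer of all genes were also called lower when either control IgG array was left out. A smaller count of lower members under these settings is therefore not particular to the members. Eif2ak3, Eif4e3 and Eif4ebp2 were higher under every alternative that tested them, Eif4e3 not being tested above a raw signal of 1000. Median centring moved the median of all genes by 0.23, quantile normalization by 0.13, spike-in scaling by 0.12 and the percentile over detected probes by −0.11, and the share of higher calls among all calls, 50.9%, was 61.2% with median centring and 60.4% with spike-in scaling, with 25 and 20 members lower.

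Signs turned mainly for values near 0, but the use of another probe also turned values further from 0, such as Eif1ad from −1.84 and Eif4e2 from −1.11. The cause was not tested. With the mean of the probes, Eif1 and the start codon selection genes had −0.39, Eif2s1 0.45, Eif4g3 −0.65, Eif5 −0.12 and the cap-binding and scaffold genes −0.014. With the probe nearest the 3′ end, Eif1ad had 0.41, Eif2s1 1.44, Eif4b 0.22 and Eif4e2 1.05. The cap-binding and scaffold median was −0.016 with quantile normalization, −0.052 without scaling, −0.11 with the percentile over detected probes and −0.37 with GC bins. Eif4e had −0.12, −0.052, −0.11 and −0.42 under these, and −0.036 with normexp, under which Eif4e1b had 0.018. The eIF5A median was 0.23 with median centring, 0.12 with spike-in scaling, 0.030 with GC bins and 0.0035 with marked spots kept. Eif3m had 0.17 with median centring and 0.067 with spike-in scaling. Eif4g2 had −0.0011 with quantile normalization, and the 4E-binding protein median was 2.34 where only Eif4ebp2 had a raw signal above 1000. Without replicate 1 or without replicate 2, the values were −0.043 and 0.016 for the cap-binding and scaffold genes, 0.13 and −0.82 for subunit joining and for Eif5b, 0.041 and −0.043 for eIF5A, 0.26 and −0.37 for Eif3m, 0.43 and −0.011 for Eif3a, 0.086 and −0.083 for Eif4e, −0.54 and 0.016 for Eif4e1b, and −0.043 and 0.28 for Eif4g3.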
